A study of Mus musculus with 14 samples.

Results

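The report describes 8 genes that are known for the specification of mouse primordial germ cells: Prdm1, Prdm14, Tfap2c, Nanos3, Dnd1, Dppa3, Ifitm1 and Ifitm3. They were chosen by gene name, and all 8 were found among the 24054 genes of each of the 14 expression tables. The tables come from low-input RNA sequencing of sorted mouse embryonic stem cells (ESCs) and of cells derived from them, in a study of how the endoderm transcription factor Foxa2 acts. The libraries held between 14142788 and 27278237 expected counts (estimated reads per gene).

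The groups d0con (2 libraries) and d3con (3 libraries) have the genotype Foxa2-Venus-KO/+, in which the sequence of a nuclear Venus reporter replaces the coding region on a single Foxa2 allele. In d0ko (2 libraries) and d3ko (3 libraries) both alleles carry it (Foxa2-Venus-KO/Foxa2-Venus-KO), so the Foxa2 promoter drives Venus in cells that cannot make Foxa2. The d0 cells are ESCs kept on red-fluorescent embryonic fibroblast feeders without LIF and sorted as Cherry-negative. The d3 cells were grown for 3 days on Wnt3a-secreting feeder cells with 12 ng/ml Activin A, a treatment that leads ESCs towards endoderm, and were sorted as Venus-positive. By the names of the tables, though not by the sample labels, each genotype is represented by 2 clones, one in replicates 1 and 3 and the other in replicate 2. Venus-negative (d2-FVFn, 2 libraries) and Venus-positive cells (d2-FVFp, 2 libraries) were sorted from a single TetON-Foxa2-Venus ESC line (T119) that had 40 ng/ml doxycycline for 48 hours, so in d2-FVFp a Foxa2-Venus fusion was forced in cells that otherwise stayed in ESC culture.

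In the embryo, primordial germ cells arise from a few cells of the posterior epiblast that receive Bmp4 and Bmp8b from the neighbouring extraembryonic tissue after Wnt3 has made them competent. Prdm1 (also Blimp1), Prdm14 and Tfap2c are the transcription factors at the core of this step: Prdm1 represses the somatic programme, Prdm14 promotes pluripotency and the loss of DNA methylation, and Tfap2c acts downstream of Prdm1. Nanos3 and Dnd1 are RNA-binding proteins that germ cells need to survive, Dppa3 (Stella) protects DNA methylation in the early embryo, and Ifitm1 and Ifitm3 (Fragilis) are small membrane proteins of an interferon-inducible family that are expressed early in the germ lineage. None of these genes belongs to germ cells alone. Several are expressed in naive ESCs, and Prdm1 is also expressed in endoderm.

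Foxa2 itself followed the labels. It stood at 58.6, 34.8 and 54.5 TPM (a share of all transcripts that takes gene length into account) in the d3con libraries and at 0.11, 0.15 and 0.19 TPM in the d3ko libraries. The d2-FVFn libraries had 2.99 and 2.01 TPM and the d2-FVFp libraries 169 and 159.8 TPM, so the Venus-negative cells were not free of the transgene. All day 0 libraries lay at or below 0.14 TPM.

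The tests turned most on Prdm1, which rose in control cells during differentiation and was lower in ESCs with forced Foxa2. The sequence before its RefSeq start site is shown for that reason. It covers the 250 bases upstream of the start on the minus strand, chr10:44458749-44458998 (GRCm38.p6), in front of the annotated start of a shorter transcript and inside the span of the gene (chromosome 10, 44437174 to 44528558). The capitals mark a match to TGTTTAC, the core letters bound by Foxa factors, read on the opposite strand of this sequence.
Prdm1: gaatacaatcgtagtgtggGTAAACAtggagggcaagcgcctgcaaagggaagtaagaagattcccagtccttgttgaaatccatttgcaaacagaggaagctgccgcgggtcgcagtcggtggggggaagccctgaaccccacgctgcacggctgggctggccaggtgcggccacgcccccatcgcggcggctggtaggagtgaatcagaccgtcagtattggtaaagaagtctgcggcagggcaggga
The match lies 231 to 225 bases before the start. Of all 32851 RefSeq promoter windows of the same kind (250 bases before and 50 after the start), 1199 or 3.65% held TGTTTAC on either strand, so a match describes these letters and says nothing of binding. Windows were at hand for 4 of the 8 genes, Prdm1, Nanos3, Ifitm1 and Ifitm3.

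The same search found 1 match to TGTTTAC in the window of Ifitm1, 35 to 41 bases past the start, and none in those of Nanos3 and Ifitm3. In the window of Ifitm3 it found 2 matches to GAAANNGAAA, the core of the interferon-stimulated response element, 3 to 12 and 20 to 29 bases past the start. That core was in 3.44% of the windows on either strand and in no other of these 4. Ifitm1 and Ifitm3 are shown because their differences under doxycycline had opposite signs, although both stayed under 2-fold and neither was called. The stretches are chr7:140968098-140968125 on the plus strand and chr7:141010715-141010744 on the minus strand, with the matches in capitals. The start used for Ifitm1 lies inside the span of the gene (chromosome 7, 140967429 to 140969827).
Ifitm1: gcacaccaaattGTAAACAtaaggaagt
Ifitm3: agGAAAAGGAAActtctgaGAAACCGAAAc

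In undifferentiated ESCs the 8 genes were expressed over a wide range of levels. In d0con the mean TPM was 1127 ± 308 (SD, n = 2) for Ifitm3, 337 ± 99.7 for Ifitm1 and 304 ± 187 for Dppa3. Tfap2c followed at 58.7 ± 16.1 TPM, Dnd1 at 36 ± 9.14, Nanos3 at 13.6 ± 2.42, Prdm14 at 11.8 ± 0.17 and Prdm1 at 4.89 ± 0.516. In this order Ifitm1 and Dppa3 overlapped in their libraries, Nanos3 and Prdm14 met at 11.9 TPM, and the other neighbours did not overlap. The lowest of them, Prdm1, was still above 63.1% of all genes in d0con on average. All 8 genes were thus detected in ESCs before any differentiation, and their sum lay between 1617 and 2409 TPM in the 4 day 0 libraries.

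**Figure D1:**
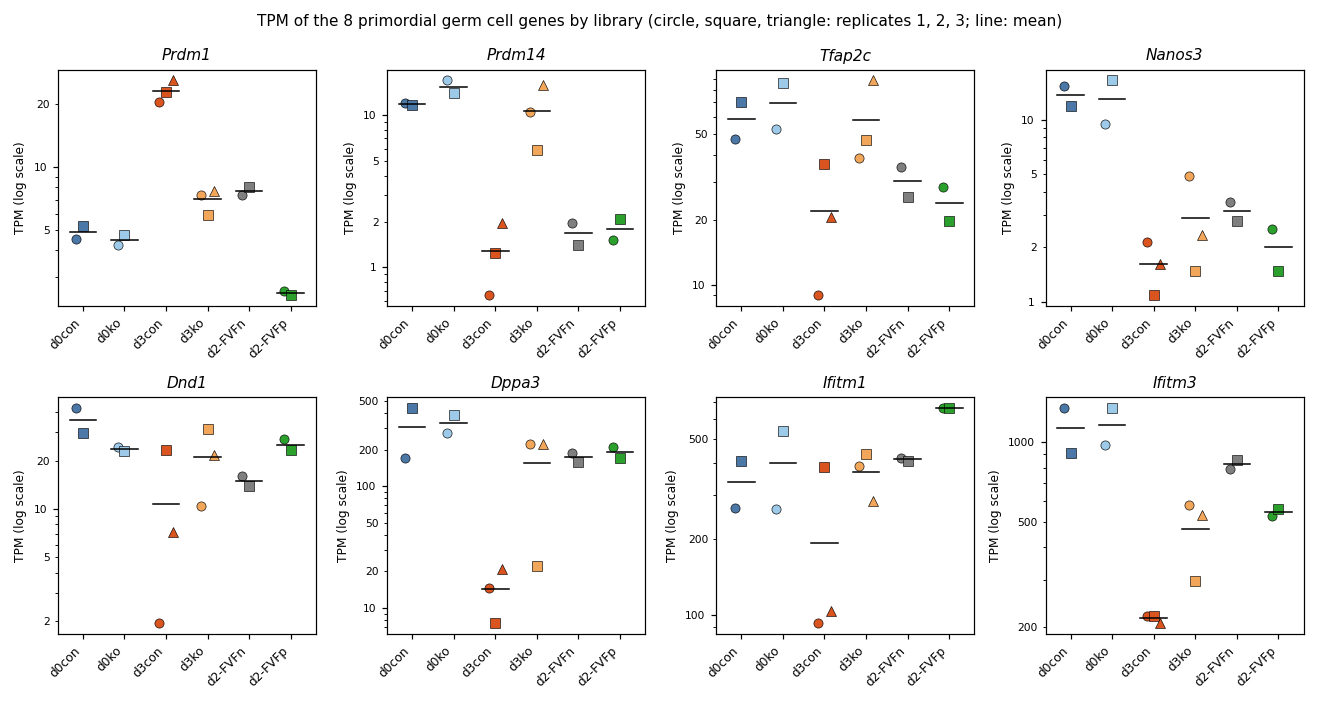
TPM on a log scale for each of the 8 genes in each library, by group, with circles, squares and triangles for replicates 1, 2 and 3 and a line at the group mean. Prdm1 is highest in the 3 d3con libraries (20.5 to 26 TPM), while Prdm14, Dppa3 and Ifitm3 are lower there than in every day 0 and d3ko library.

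The 8 genes did not detectably differ between the genotypes in ESCs. In d0ko against d0con none of the 8 genes was called, and neither was any of the 13899 genes tested (0% called). Calls here and below are by edgeR's quasi-likelihood test with an adjusted p under 0.05 and a change of more than 2-fold. At an unadjusted p under 0.05 the fit held 195 genes, none of them among the 8. DESeq2 called none of the 8. Prdm14 at 11.9 and 11.7 TPM in d0con and 16.8 and 13.8 TPM in d0ko did not overlap, and neither did Dnd1 at 42.5 and 29.6 against 24.3 and 22.9 TPM. With 2 libraries per group such a lack of overlap carries little weight, and its share over all genes was not counted.

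During differentiation of the control cells, 6 of the 8 genes changed. In d3con against d0con Prdm1 rose and Prdm14, Tfap2c, Nanos3, Dppa3 and Ifitm3 fell. Over all genes tested, 20.6% were called higher and 14.6% lower, and the median log2 fold change was -2.29 over the 8 genes against 0.07 over all genes. Ifitm1 and Dnd1 were not called.

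Prdm1 stood at 4.53 and 5.26 TPM in d0con and at 20.5, 22.8 and 26 TPM in d3con. Every d3con library lay above both d0con libraries, and the spread within each group was small. The log2 fold change was 2.03 ± 0.19 (SE, adjusted p = 0.00019, edgeR), and it lay between 1.92 and 2.15 when each library was left out in turn.

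The other 2 transcription factors went the opposite way. Prdm14 fell from 11.9 and 11.7 TPM to 0.66, 1.25 and 1.95 TPM, a log2 fold change of -3.42 ± 0.47 (adjusted p = 0.000605, edgeR), and its d3con mean was 10.9% of that in d0con. Tfap2c stood at 47.3 and 70.1 TPM in d0con and at 8.99, 36.1 and 20.7 TPM in d3con. The groups did not overlap, but the 3 d3con libraries spread about their mean of 21.9 TPM by an SD of 13.6. The log2 fold change of Tfap2c was -1.65 ± 0.51 (adjusted p = 0.0236, edgeR), and the call was lost when d0con replicate 2, d3con replicate 1 or d3con replicate 3 was left out, with values between -2.2 and -1.26 over all such fits. It was also lost without the day 3 libraries of 75-base reads, at -1.25 (adjusted p = 0.0508).

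Of the 2 RNA-binding proteins, Nanos3 was called and Dnd1 was not. Nanos3 fell from 15.4 and 11.9 TPM to 2.14, 1.09 and 1.62 TPM, a log2 fold change of -3.27 ± 0.56 (adjusted p = 0.0016, edgeR), with 8 to 17 expected counts behind each d3con value. Dnd1 stood at 42.5 and 29.6 TPM in d0con and at 1.95, 23.2 and 7.16 TPM in d3con. Its replicate 2 was near the day 0 level and replicate 1 far below it, and the log2 fold change of -1.98 ± 0.77 did not pass (adjusted p = 0.0543, edgeR). With the replicate number as a block, Dnd1 passed at -2.38 (adjusted p = 0.0457, edgeR). That block joins libraries of the same number from both genotypes and is not a term for the clone. With a term for the clone, Dnd1 passed at -2.32 (adjusted p = 0.0317, edgeR). Without d3con replicate 2 it passed at -3.21.

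Dppa3 fell furthest. It stood at 172 and 437 TPM in d0con and at 14.5, 7.58 and 21 TPM in d3con, a log2 fold change of -4.62 ± 0.86 (adjusted p = 0.00241, edgeR), so d3con held 4.72% of the d0con mean. Ifitm3 fell from 1345 and 909.7 TPM to 219.6, 219 and 207 TPM, a log2 fold change of -2.61 ± 0.28 (adjusted p = 0.00029, edgeR). The 3 d3con libraries differed by an SD of only 7.42 TPM. Ifitm1, which lies 39.8 kb from Ifitm3 on chromosome 7, stood at 267 and 408 TPM in d0con and at 93.2, 385 and 104 TPM in d3con. Replicate 2 overlapped the day 0 libraries, and the log2 fold change of -1.04 ± 0.56 did not pass (adjusted p = 0.147, edgeR). Without d3con replicate 2 it was called at -1.99, and with a term for the clone at -1.11 (adjusted p = 0.0173). With that term all 8 genes were called, beside 34.5% of all genes.

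Replicate 2 of d3con, by its table's name the library of the other clone, was thus the highest of its group in Tfap2c, Dnd1 and Ifitm1, and the lowest in Nanos3 and Dppa3. Other markers set this library apart too. Pou5f1 stood at 63.5, 319 and 59.7 TPM and Nanog at 40.2, 246 and 42.5 TPM in d3con replicates 1, 2 and 3, and the mesoderm gene T at 11.4, 131 and 15.5 TPM. The summed TPM of 6 mesoderm markers was 144, 297 and 164 in d3con and 168, 505 and 116 in d3ko, highest in replicate 2 of both. Replicate 2 of d3con also held the least RNA of fibroblast markers. The summed TPM of 10 such markers was 526, 78.2 and 271 in the d3con libraries, against 22.4 to 160 in the day 0 libraries, 174 to 481 in d3ko and 3.76 to 6.93 in the doxycycline libraries, which had no feeders. In d3con no marker of the 10 was under 1 TPM in all libraries. Over d0con 6 of the 10 rose, against 20.6% of all genes called higher. The part of feeder RNA, or of cells with these other markers, in the levels of the 8 genes was not tested. In bulk RNA, fewer cells that express a gene and less RNA per cell cannot be told apart.

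Without Foxa2 the same treatment changed 2 of the 8 genes. In d3ko against d0ko Nanos3 and Ifitm3 fell and none rose, against 5.72% of all genes called lower and 11.6% called higher. The median log2 fold change was -0.55 over the 8 genes and 0.07 over all genes. Nanos3 stood at 9.46 and 16.4 TPM in d0ko and at 4.9, 1.48 and 2.32 TPM in d3ko, a log2 fold change of -2.33 ± 0.54 (adjusted p = 0.013, edgeR). The call was lost when either d0ko library was left out. Nanos3 lies on chromosome 8 (84173733 to 84176552), and in d3ko replicate 2, the lowest of the 3 libraries for Nanos3, the 508 well-counted genes of chromosome 8 had a median log2 shift of -0.43 against the other 2 libraries, where the other autosomes lay between -0.01 and 0.08. The part of this shift in the Nanos3 value was not tested. Ifitm3 stood at 973 and 1342 TPM in d0ko and at 578, 298 and 528 TPM in d3ko, a log2 fold change of -1.49 ± 0.28 (adjusted p = 0.00579, edgeR), and its call was lost without d0ko replicate 2.

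The other 6 genes were not called in d3ko against d0ko. Prdm1 stood at 4.24 and 4.76 TPM in d0ko and at 7.38, 5.93 and 7.73 TPM in d3ko. All 3 d3ko libraries were higher, but the log2 fold change was 0.48 ± 0.18 (adjusted p = 0.0679, edgeR). Dppa3 stood at 273 and 387 TPM in d0ko and at 222, 22.4 and 221 TPM in d3ko, with replicate 2 far below the others, and its log2 fold change of -1.26 ± 0.78 did not pass (adjusted p = 0.246, edgeR). For Prdm14, Tfap2c, Dnd1 and Ifitm1 the groups overlapped and the log2 fold changes lay between -0.69 and -0.29. The mean TPM in d3ko was 69.6% of that in d0ko for Prdm14, 83.7% for Tfap2c, 89.5% for Dnd1 and 92.3% for Ifitm1.

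**Figure D2:**
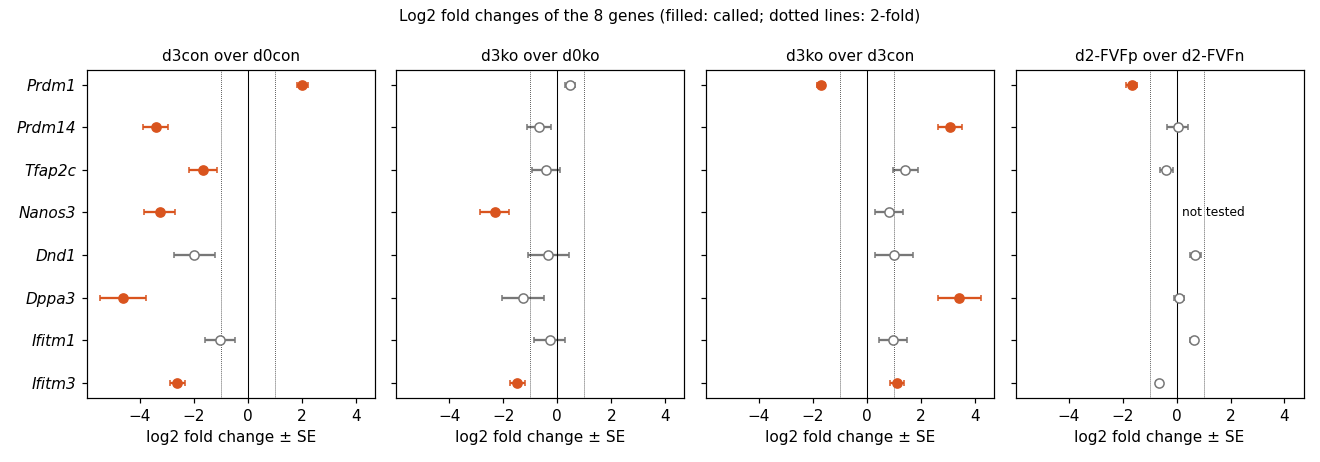
Log2 fold changes of the 8 genes with their standard errors in the 4 comparisons named above each panel, filled where the gene was called, with dotted lines at a 2-fold change. Prdm1 is on the opposite side of 0 from the other called genes in d3con over d0con and in d3ko over d3con, and alone is called in d2-FVFp over d2-FVFn.

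At day 3 the genotypes differed in 4 of the 8 genes. Against d3con, Prdm1 was lower in d3ko, and Prdm14, Dppa3 and Ifitm3 were higher. Over all genes 4.75% were called higher and 3.51% lower, and the median log2 fold change was 1.06 over the 8 genes against 0.02 over all. The d3con libraries also enter the comparison with d0con, so the 2 sets of values are not independent of each other.

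Prdm1 stood at 20.5, 22.8 and 26 TPM in d3con and at 7.38, 5.93 and 7.73 TPM in d3ko. The groups were well apart, at 23.1 ± 2.77 and 7.01 ± 0.954 TPM (SD, n = 3 libraries, by the table names from 2 clones each). The log2 fold change was -1.71 ± 0.16 (adjusted p = 0.00297, edgeR), that is 3.28-fold. It lay between -1.79 and -1.6 when each library was left out, and it was called in each of these fits. Its call was lost without both libraries of 75-base reads, where the value was -1.83 (adjusted p = 0.0848) and 1 of all 13628 genes was called.

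Prdm14 stood at 0.66, 1.25 and 1.95 TPM in d3con and at 10.5, 5.88 and 15.7 TPM in d3ko. All d3ko libraries were higher, and d3ko replicate 3 was within the range of the day 0 libraries, 11.7 to 16.8 TPM. The log2 fold change was 3.07 ± 0.44 (adjusted p = 0.00985, edgeR), and it was called in each of the 6 fits that left out a day 3 library, between 2.69 and 3.47. In a fit of only d3con and d3ko it was 3.07 (adjusted p = 0.053), and without both libraries of 75-base reads it was 2.76 (adjusted p = 0.126).

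Dppa3 and Ifitm3 were called with less certainty. Dppa3 stood at 14.5, 7.58 and 21 TPM in d3con and at 222, 22.4 and 221 TPM in d3ko. The lowest d3ko library was barely above the highest d3con library, and the log2 fold change was 3.43 ± 0.79 (adjusted p = 0.0276, edgeR). Ifitm3 stood at 219.6, 219 and 207 TPM in d3con and at 578, 298 and 528 TPM in d3ko, a log2 fold change of 1.12 ± 0.26 (adjusted p = 0.0267, edgeR). Both calls were lost in 5 of the 6 fits that left out a day 3 library, all but the fit without d3ko replicate 2, with values from 3.08 to 3.94 for Dppa3 and from 0.94 to 1.36 for Ifitm3.

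The remaining 4 genes were not called. Tfap2c stood at 38.7, 46.9 and 88.2 TPM in d3ko against 8.99, 36.1 and 20.7 TPM in d3con, with a log2 fold change of 1.42 ± 0.47 (adjusted p = 0.0874, edgeR) and no overlap. DESeq2 called it at 1.41 (adjusted p = 0.0151), and edgeR with a term for the clone at 1.86 (adjusted p = 0.0383). Dnd1 at 10.4, 31.5 and 21.6 TPM and Ifitm1 at 389, 434 and 284 TPM in d3ko overlapped with d3con because of the high replicate 2 there. Their log2 fold changes were 0.99 ± 0.70 and 0.95 ± 0.52, and without d3con replicate 2 both were called, at 2.22 and 1.9. The clone term called Ifitm1 at 1.49 (adjusted p = 0.0252), and with it 6 of the 8 genes and 10.7% of all genes were called. Between genotypes, values with that term refer to the clone of replicates 1 and 3 in each, and are not an average over the clones. Nanos3 had the smallest change, 0.81 ± 0.52 (adjusted p = 0.347, edgeR), with 8 to 30 expected counts behind each day 3 value.

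The d3ko libraries were not alike in how far they had left the ESC state. The summed TPM of 8 naive pluripotency genes was 1012, 142 and 1304 in d3ko replicates 1, 2 and 3, against 36.1 to 46.2 in d3con and 1274 to 1375 at day 0, and that of 8 endoderm genes was 94.2, 193 and 34.5 against 804 to 1041 in d3con. Prdm14 and Prdm1 had the same order of d3ko libraries as the naive genes, and Nanos3, Dppa3 and Ifitm3 were also lowest in replicate 2. Tfap2c, Dnd1 and Ifitm1 were not, and Dnd1 and Ifitm1 were highest there. The fibroblast marker sum, at 461, 174 and 481 TPM in d3ko, overlapped with that of d3con. None of its 10 genes was called between the genotypes, against 8.26% of all genes. Without both day 3 libraries of replicate 2, an alternative chosen after the data were seen, 7 of the 8 genes were called, 6 of them higher and Prdm1 lower, with Nanos3 the exception. The share of all genes called rose as well in that fit, to 18.8% from 8.26%.

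**Figure D3:**
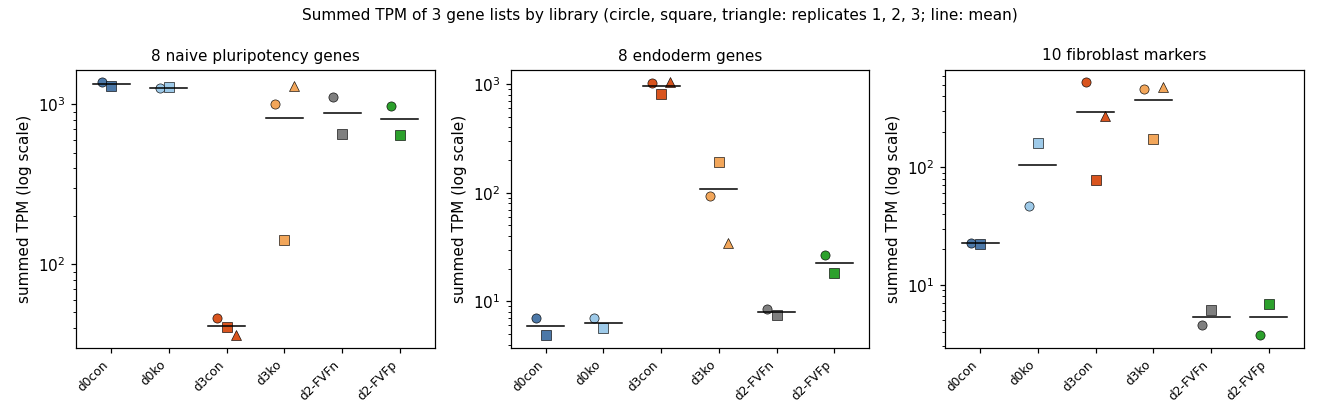
Summed TPM on a log scale of 8 naive pluripotency genes, 8 endoderm genes and 10 fibroblast markers in each library, with symbols as in the plot of the 8 genes. The d3ko libraries spread from 142 to 1304 TPM in the naive pluripotency genes, while d3con stays between 36.1 and 46.2 TPM.

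The difference between the genotypes was not shown to change between the days. The genotype by day interaction called none of the 8 genes and none of all 13899 genes (0% called), with 4 of the 8 and 1840 of all genes at an unadjusted p under 0.05. Foxa2 itself, the deleted gene, was not called either, at -7.68 ± 0.87 on the log2 scale (adjusted p = 0.0544, edgeR). A missing call here thus does not show that a difference stayed the same between the days. Among the members, the interaction was -1.55 ± 0.25 on the log2 scale for Prdm1 (adjusted p = 0.105, edgeR) and 2.73 ± 0.65 for Prdm14 (adjusted p = 0.156). It was 3.36 ± 1.17 for Dppa3 (adjusted p = 0.267) and 1.12 ± 0.40 for Ifitm3 (adjusted p = 0.276). DESeq2 called 2 of the 8, Prdm1 at -1.54 (adjusted p = 8.5e-06) and Prdm14 at 2.74 (adjusted p = 0.00265), among 566 genes. Without d3ko replicate 2, edgeR called 4 of the 8 and 8.1% of all genes.

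Prdm1 was lower in the ESCs with forced Foxa2. In d2-FVFp against d2-FVFn Prdm1 was the 1 gene called of the 7 that could be tested, and it fell. Over all 12943 genes 1.47% were called lower and 6.96% higher, and the median log2 fold change was 0.04 over the 7 genes and 0.01 over all. Nanos3, with 3.52 and 2.77 TPM in the d2-FVFn libraries against 2.52 and 1.48 TPM, was too low for the test.

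The d2-FVFn libraries held 7.36 and 8 TPM of Prdm1, and the d2-FVFp libraries 2.57 and 2.45 TPM. The replicates lay close together in both groups, and the d2-FVFp values were the lowest of Prdm1 in all 14 libraries. The log2 fold change was -1.66 ± 0.20 (adjusted p = 0.00353, edgeR), that is 3.16-fold, and it lay between -1.7 and -1.58 with a call in each of the 4 fits that left out a library. Against a 2-fold change, DESeq2 gave -1.67 (adjusted p = 0.657).

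Prdm1 was therefore higher with Foxa2 in differentiating cells and lower with Foxa2 in ESCs. To test this difference itself, all 14 libraries were fitted together, and d3con over d3ko was compared with d2-FVFp over d2-FVFn. The test was chosen after the values of Prdm1 were seen. It called 3.7% of 14312 genes and 2 of the 8. For Prdm1 the difference was 3.39 ± 0.24 on the log2 scale (adjusted p = 7.69e-05, edgeR), and it was called in each of the 10 fits that left out a library, between 3.28 and 3.45. For Prdm14 it was -3.09 ± 0.64 (adjusted p = 0.0274, edgeR), which was lost when any of the 4 doxycycline libraries was left out. For Dppa3 it was -3.51 ± 1.05 (adjusted p = 0.0816, edgeR). The 2 systems also differ in cell line, culture, feeders and level of Foxa2, and these cannot be told apart from the way Foxa2 was supplied.

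**Figure D4:**
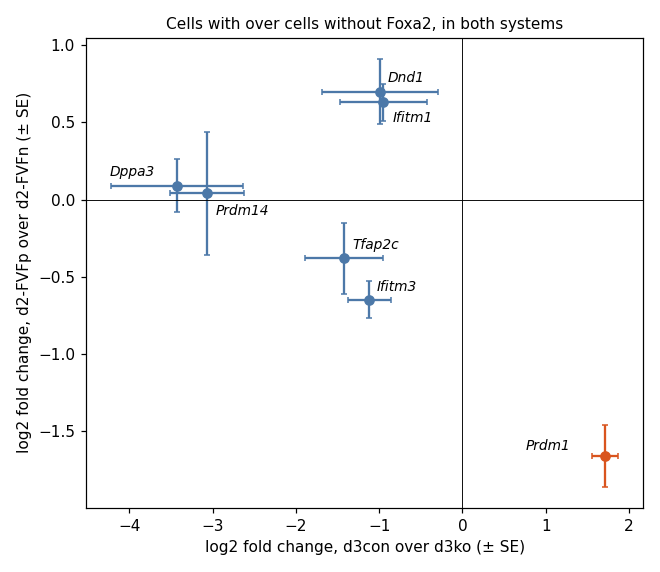
Log2 fold change of each of 7 genes in cells with over cells without Foxa2, at day 3 of differentiation on the horizontal axis (d3con over d3ko) and under doxycycline on the vertical axis (d2-FVFp over d2-FVFn), with standard errors. Prdm1 lies alone at the lower right, higher with Foxa2 at day 3 and lower with Foxa2 under doxycycline.

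The doxycycline line itself differed from the day 0 ESCs in some of the 8 genes, given here side by side and without a test because line and culture differ. The mean of Prdm14 was 1.69 ± 0.396 TPM (SD, n = 2) among Venus-negative cells, 1.79 ± 0.403 among Venus-positive cells and 11.8 ± 0.17 in d0con. The doxycycline libraries, at 1.41 to 2.08 TPM, lay close to the d3con range of 0.66 to 1.95 TPM. The log2 fold change of Prdm14 under doxycycline was 0.04 ± 0.40 (adjusted p = 0.95, edgeR). Dppa3 was at 188 and 158 TPM in the Venus-negative and 210.2 and 171 TPM in the Venus-positive libraries, with a log2 fold change of 0.09 ± 0.17 (adjusted p = 0.729, edgeR), so the fall of Dppa3 during differentiation had no counterpart of that size here. Tfap2c, at 35 and 25.4 against 28.2 and 19.8 TPM, changed by -0.38 ± 0.23 (adjusted p = 0.293, edgeR).

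Ifitm1 and Ifitm3 had differences of opposite sign under doxycycline. Ifitm1 had 420.1 and 407 TPM in d2-FVFn, and the d2-FVFp libraries had 660.3 and 659 TPM, a log2 fold change of 0.63 ± 0.12 (adjusted p = 0.0136, edgeR). Ifitm3 had 794 and 858 TPM in d2-FVFn, and the d2-FVFp libraries had 527 and 558 TPM, a log2 fold change of -0.65 ± 0.12 (adjusted p = 0.0131, edgeR). Both passed the threshold on p and stayed under 2-fold, so neither was called, and 16.5% of all genes passed on p alone. The ratio of Ifitm1 to Ifitm3 within a library, which does not depend on scaling between libraries, was 0.529 and 0.475 in the Venus-negative cells and 1.25 and 1.18 in the Venus-positive cells. Dnd1, at 16.1 and 13.8 against 27.2 and 23.2 TPM, had a log2 fold change of 0.70 ± 0.21 and did not pass (adjusted p = 0.0575, edgeR).

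The same ratio of Ifitm1 to Ifitm3 set replicate 2 apart at day 3. It was 1.75 in d3con replicate 2 and 1.46 in d3ko replicate 2, against 0.425 and 0.503 in the other d3con and 0.674 and 0.538 in the other d3ko libraries. At day 0 it was 0.448 and 0.399 in replicate 2 and 0.198 and 0.272 in replicate 1. In d3con the high ratio came with a high Ifitm1 beside an Ifitm3 like that of the other libraries, and in d3ko with the highest Ifitm1 and the lowest Ifitm3 of the group. Ifitm2, a neighbour on chromosome 7 (140954837 to 140959686), was not called in any of the 5 comparisons between groups, with log2 fold changes between -0.29 and 0.37. The genes of this family resemble each other in sequence, and the counting shared reads that fit several genes among them, so the split between them carries an uncertainty that is not in the errors given.

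**Figure D5:**
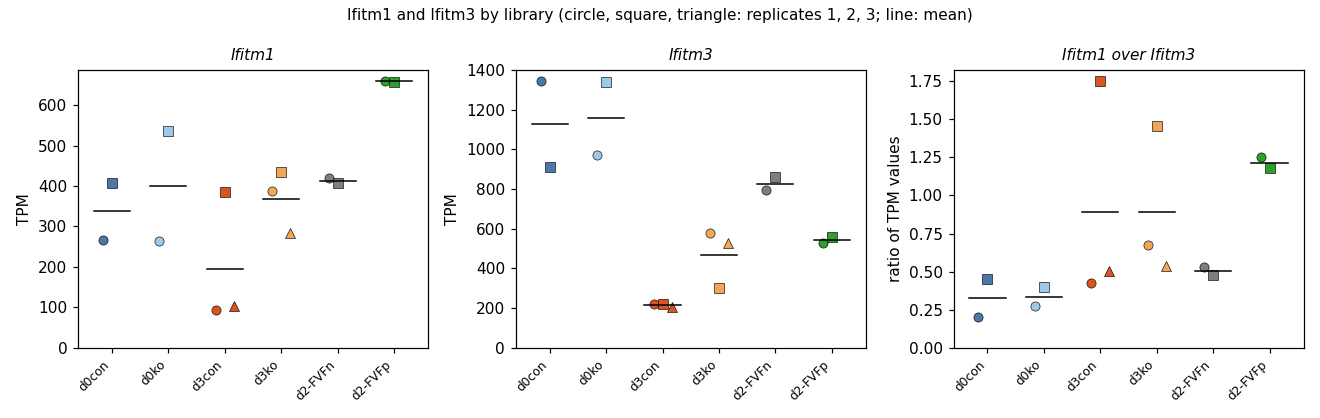
Levels of Ifitm1 and Ifitm3 in TPM and their ratio in each library by group, with circles, squares and triangles for replicates 1, 2 and 3 and a line at the mean. The ratio lies above 1 in both d2-FVFp libraries and in replicate 2 of d3con and d3ko, and below 0.7 in the other 10 libraries.

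The interferon response was looked at beside the Ifitm genes, with a list of 12 genes. In d3ko against d3con none of the 10 tested was called, against 8.26% of all genes. In d3con against d0con Usp18 (log2 fold change 4.94) and Stat2 (1.45) rose and Irf9 (-1.77) fell. Of all genes, 20.6% were called higher and 14.6% lower there. Under doxycycline Usp18 rose, from a listed 0 TPM in d2-FVFn to a mean of 1.54 TPM, and Oasl2 fell by 1.24 on the log2 scale. The shares of all genes called were 6.96% higher and 1.47% lower. The summed TPM of the list was 183 and 193 in the Venus-negative and 177 and 193 in the Venus-positive libraries. Bst2 alone held 146 and 162 TPM in the former and 140 and 154 TPM in the latter. The sum therefore says little of the other genes.

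Of the 10 genes for the inducing signals, 6 changed during differentiation of the control cells, and 5 of these were also called without Foxa2, against 35.2% and 17.3% of all genes called in the 2 comparisons. In d3con against d0con Bmp2, Wnt3, Smad1 and T rose and Bmp4 and Bmp8b fell. In d3ko against d0ko the same 4 rose and Bmp4 fell. Between the genotypes at day 3, Bmp4, the main inducer of germ cells in the embryo, was 2.49 ± 0.44 higher on the log2 scale in d3ko (adjusted p = 0.0137, edgeR), at 55.1, 18.5 and 49.2 TPM against 8.3, 9.34 and 4.16 TPM in d3con. Smad1, which carries the Bmp signal to the nucleus, was lower in d3ko by a log2 fold change of -1.39 ± 0.27 (adjusted p = 0.0163, edgeR). Under doxycycline Bmp2 and its receptor Acvr1 rose, from means of 0.04 and 1.11 TPM in d2-FVFn to 1.33 and 3.23 TPM. None of the 9 tested fell. Of all genes, 6.96% were called higher and 1.47% lower there.

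Of the later and accompanying germ cell genes 15 were tested. In d3con against d0con 10 fell, against 14.6% of all genes called lower. Among them were Ddx4 (-5.49), an RNA helicase of germ cells, Tcl1 (-5.34), Esrrb (-5.11) and Klf2 (-5.03). Kit, the receptor for stem cell factor, rose (2.80), beside 20.6% of all genes called higher. In d3ko against d3con 9 were higher, with Tcl1 at 5.13, Esrrb at 4.68, Dazl at 4.55 and Klf2 at 3.97. Kit (-1.24) and Sall4 (-1.14) were lower. Of all genes, 4.75% were called higher and 3.51% lower. The list includes pluripotency genes and its median log2 fold change was 3.08 against 0.02 over all genes. Under doxycycline Alpl, tissue-nonspecific alkaline phosphatase and a classical stain of germ cells and ESCs, fell (-1.55). No other gene of the list was called, against 8.43% of all genes.

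Of 16 family neighbours of the 8 genes, 8 were tested in the day 0 and day 3 libraries, and the rest were too low. Dppa2, Dppa4 and Dppa5a were listed for the name root they share with Dppa3 (developmental pluripotency associated), and Dppa2 and Dppa4 are chromatin proteins of ESCs. All 3 fell in d3con against d0con, by log2 fold changes of -7.19, -5.84 and -4.96, and all 3 were higher in d3ko than in d3con, by 4.95, 4.32 and 4.51. Nanos1 and Prdm16 did the same at mean levels under 2 TPM. The shares of all genes called were 14.6% lower in the first comparison and 4.75% higher in the second. Prdm6 rose in both genotypes, from 0 TPM at day 0 to means of 19.3 TPM in d3con and 18.6 TPM in d3ko. Of Prdm1, Prdm14, Prdm4, Prdm6 and Prdm16, Prdm1 alone was called higher in d3con than in d3ko.

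Across the 14 libraries the 8 genes fell into patterns that were described by Pearson's r on log2(TPM + 1), without a test, since the libraries share clones, culture and depth. Prdm1 correlated negatively with each of the other 7, from -0.77 with Dppa3 to -0.39 with Tfap2c. The other pairs all correlated positively, from 0.12 for Ifitm1 with Nanos3 to 0.89 for Ifitm3 with Dppa3. Ifitm1 and Ifitm3 had an r of 0.48 with each other.

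The genes whose pattern was most like that of a member were taken from 11131 genes with at least 5 TPM in 2 or more libraries. For Prdm1 these were AW551984 and Ivns1abp, each at an r of 0.92, and AW551984 had means of 9.47 TPM in d3con, 2.03 TPM in d3ko, 1.66 TPM in d2-FVFn and 0.795 TPM with forced Foxa2. For Dppa3 they were Irak3 (0.98) and 2410141K09Rik (0.97), for Ifitm3 Foxd3 and Sirt6 (both 0.97), and for Nanos3 Amt (0.97) and Mras (0.96). The others were Dnd1, with Metrn (0.93) and Socs2 (0.90), Tfap2c, with Rhebl1 and Lipe (both 0.90), and Ifitm1, with Prps1 and Bscl2 (both 0.88).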

How the data were processed

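RNA from sorted cells was sequenced by the authors after SMART-Seq v4 cDNA synthesis. They aligned the reads to mm10 (GRCm38) with STAR and quantified each library with RSEM; versions are not given in the sources used here. The deposited expected counts are RSEM's estimated counts, without any scaling for depth. TPM values, also from RSEM, were scaled by the authors for length and for the total of each library. Effective gene lengths gave reads of 75 bases for d3con replicate 1 and d3ko replicate 1 and of 50 bases for all others, so each genotype holds 1 such library at day 3 and none at day 0.

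Groups and replicate numbers came from the sample titles, and clones from the names of the tables. Expected counts were rounded, filtered at 1 CPM in at least 2 libraries of the fit, scaled with TMM and tested with edgeR 4.0.16 (glmQLFit and glmQLFTest, R 4.3.3) with Benjamini-Hochberg adjustment over all genes tested. The 10 day 0 and day 3 libraries were fitted together, and the 4 doxycycline libraries apart. Calls needed an adjusted p under 0.05 and a log2 fold change beyond 1 in either direction. SE is the log2 fold change over the square root of F. The study calls the replicates biological, while no label ties them to separate cultures, so p-values measure the spread between these libraries. The fits were also run on simulated counts drawn without differences between clones, so that run does not vouch for the calls here. Alternatives used DESeq2 1.42.0, limma 3.58.1 on log2(TPM + 1) and log2(TPM + 0.1), a mean count of at least 50, other scaling, blocks and left-out libraries. Genes were named as follows: the 8 members, Foxa2, up to 4 called genes per list and comparison with the largest change (or all of a short list), and the 2 genes most like each member (those for Prdm14 are not reported here); Ifitm2, Kit, Sall4, the inducing signals and the family neighbours were named after their values were seen where they fall outside this rule. The members and lists were chosen with earlier results of these data known. Promoter sequences and positions are RefSeq's for GRCm38.p6.

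The main fits used the group alone, and replicate numbers and clones entered only in alternatives. Their p-values treat the 3 libraries of a day 3 group as separate, although by the table names these come from 2 clones. No clone is shared by the genotypes, so differences between genotypes are also differences between clones. In a comparison of genotypes, the fit with the clone term refers to the clone of replicates 1 and 3 in each. By the table names, replicates 1 and 2 of one genotype are the same clones at both days. Their libraries did not deviate together. Correlations of deviations from the group means were 0.03 and -0.01 for con and -0.04 and 0.06 for ko. They were 0.54, 0.29 and -0.01 for replicates 1, 2 and 3 of d3ko and d3con. Under doxycycline there was a single value, 0.29, because the 2 replicates of a group deviate by equal and opposite amounts. With the replicate number as a block, 11.6% of all genes were called under doxycycline against 8.43% without it, and Prdm1 stayed the 1 member called.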

Additional observations from a re-analysis of the deposited data

Results flagged for a closer look

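The log2 fold change of d3con over d3ko differed from that of d2-FVFp over d2-FVFn for Prdm1 and Prdm14. The difference was 3.39 for Prdm1 (adjusted p = 7.69e-05, edgeR over 14 libraries) and -3.09 for Prdm14 (adjusted p = 0.0274). Both genes were marked because the difference between the 2 systems was itself tested. That test was chosen after the values of Prdm1 were seen. Cell line, culture, feeders and level of Foxa2 also differ between the systems and cannot be told apart from the way Foxa2 was supplied. For Prdm1 the direction held in every library: all 3 d3con libraries were above all 3 d3ko libraries, and both d2-FVFp libraries were below both d2-FVFn libraries. For Prdm14 all 3 d3con libraries were below all 3 d3ko libraries, while the doxycycline groups overlapped. No group had the 4 samples needed to test a single library as an outlier.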

How the results depend on the processing

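The count of the 8 genes called in d3con against d0con was 6, beside 35.2% of all genes. It was 7 by DESeq2 (37.3%), 8 with a term for the clone (34.5%), and 5 to 8 when a d3con library was left out (31.6% to 35.5%). In d3ko against d0ko it was 2, beside 17.3% of all genes. It was 1 at an adjusted p under 0.01 (7.98%), 1 in a fit of the 2 groups alone (10.1%) and 0 by DESeq2 against a 2-fold change (3.08%). With a d3ko library left out it stayed 2 (15.4% to 20.7%), and the calls lost without a d0ko library are named above. In d3ko against d3con it was 4, beside 8.26% of all genes. It was 5 by DESeq2 (12.1%) and 2 at an adjusted p under 0.01 (0.612%). With the clone term, which refers here to the clone of replicates 1 and 3, it was 6 (10.7%). It was 0 without both libraries of 75-base reads (0.00734%) and 1 in a fit of the 2 groups alone (0.496%). Without both day 3 libraries of replicate 2 it was 7 (18.8%), and with a library left out it was 2 to 5 (0.579% to 16.3%). In the interaction it was 0, beside 0% of all genes. It was 2 by DESeq2 (4.07%), 4 without both day 3 libraries of replicate 2 (11.9%), and 0 to 4 with a day 3 library left out (0% to 8.1%). Under doxycycline it was 1, beside 8.43% of all genes, with 0 by DESeq2 against a 2-fold change (1.8%). In the difference of the 2 systems it was 2, beside 3.7% of all genes. It was 1 at an adjusted p under 0.01 (0.196%) and 1 without the 75-base libraries (0.44%). With a day 3 library left out it was 2 to 4 (0.807% to 13.9%), and the call lost without a doxycycline library is named above. In d0ko against d0con it stayed 0. The cause of these changes was not tested. The alternative without both replicate 2 libraries and the difference of the 2 systems with its alternatives were chosen after seeing the data.

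With the replicate number as a block, d3ko against d3con gave 3 calls: Tfap2c was called at 1.48 (adjusted p = 0.0494), and Dppa3 at 3.35 (adjusted p = 0.054) and Ifitm3 at 1.09 (adjusted p = 0.0509) were not. The block changed no other call but that of Dnd1 in d3con against d0con.

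Directions changed for values near 0. Ifitm1 in d3ko against d0ko was 0.08 with the block. Dnd1 there was 0.00 without the 75-base libraries. Ifitm3 in d0ko against d0con was 0.00 with a mean count of at least 50, 0.04 with the block, 0.05 with limma on either pseudocount and 0.09 with a term for the clone. Nanos3 in the difference of the 2 systems was 0.20 without the 75-base libraries. With a library left out, d0ko against d0con ran from -0.45 to 0.9 for Dppa3, -0.38 to 0.6 for Ifitm1, -0.26 to 0.3 for Ifitm3, -0.55 to 0.2 for Nanos3 and -0.18 to 0.51 for Tfap2c. Ifitm1 in d3ko against d0ko ran from -0.7 to 0.28, Nanos3 in the difference of the 2 systems from -0.46 to 0.48, and under doxycycline Dppa3 from -0.04 to 0.25 and Prdm14 from -0.19 to 0.32. Depth limits Nanos3 most, with 8 to 30 expected counts in the day 3 libraries.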
